A study of Mus musculus with 6 samples.

Results

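The p53 pathway was described here through a set of 9 genes, made up of the p53 gene Trp53, the p53 inhibitors Mdm2 and Mdm4, and the p53 target genes Ccng1, Gadd45a, Btg2, Perp, Pmaip1 and Zmat3. The genes were listed by name, and every probe set that the annotation of the array platform assigned to 1 of them was taken. This gave 8 probe sets for 7 genes among the 12488 probe sets of the array. Trp53 and Pmaip1, which encodes the death-promoting protein Noxa, had no assigned probe set, so no value is given for the p53 transcript. Probe sets assigned to the pseudogene Trp53-ps were not counted as Trp53, and the annotation does not say whether they also read it.

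The cells were NIH3T3, an immortalised mouse fibroblast line, in the form of 1 clone that carries c-myc and Ha-ras under a Tet-off promoter, which doxycycline silences. In every group the cells also made IRF-1hER all the time, a fusion of interferon regulatory factor-1 with hER, the hormone-responsive part of the estrogen receptor, which estradiol activates. The estradiol group had both oncogenes on and received 1 mM estradiol, as the labels give it, for 48 h. The withdrawal group had the oncogenes on and no estradiol, and the doxycycline group received 2 µg/ml doxycycline with the oncogenes off. Each group held 2 arrays. Replicate 1 was extracted with RNeasy and replicate 2 with TRIzol in all 3 groups, and the labels do not say that the replicates were separate cultures. Doxycycline replicate 2 has a title that names estradiol as well, against a treatment entry with doxycycline alone. Because of the design, an effect of doxycycline cannot be told apart from one of the oncogenes, nor an effect of estradiol from one of active IRF-1. Estradiol against doxycycline differs in all of these at once, so its values cannot be assigned to any of them.

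p53 is a transcription factor that is kept scarce in unstressed cells because Mdm2, a ubiquitin ligase, marks it for destruction and Mdm4, its relative, masks its activating domain. Mdm2 is itself a p53 target, so the pathway holds a negative feedback loop. Oncogenes such as Myc and Ras can stabilise p53 through Arf, a product of Cdkn2a that blocks Mdm2, and NIH3T3 cells are known to have lost that locus. Activated p53 switches on genes that arrest the cell cycle, repair DNA or kill the cell. Bulk RNA cannot tell fewer expressing cells from less transcript per cell.

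The promoters of Ccng1, Mdm2 and Gadd45a are shown because p53 acts through adjoining copies of a 10-base motif, the p53 decamer, which they contain. Being shown does not mark a gene as changed. The groups of Mdm2 and Gadd45a overlapped in every comparison. Those of Ccng1 did not overlap in some, and the same held for Mdm4 and Btg2, whose promoters held no decamer and are not shown. Over all tested probe sets, 10.3% to 27% did not overlap in a given direction, depending on the comparison. A link between decamer and change was not tested. The RefSeq promoter table (build GRCm38.p6) matched 6 of the 9 genes by symbol with 7 entries, each covering 250 bases before to 50 bases after a transcription start. Pmaip1, Perp and Zmat3 had no entry. Capitals mark exact matches to the p53 decamer, a motif that reads the same on both strands, and matches to its adjoining pair with at most 2 mismatches in 20 bases. The promoters follow 5′ to 3′ on the minus strand, at chr11:40755237-40755536 for Ccng1, chr10:117710709-117711008 for Mdm2 and chr6:67037358-67037657 for Gadd45a.
Ccng1: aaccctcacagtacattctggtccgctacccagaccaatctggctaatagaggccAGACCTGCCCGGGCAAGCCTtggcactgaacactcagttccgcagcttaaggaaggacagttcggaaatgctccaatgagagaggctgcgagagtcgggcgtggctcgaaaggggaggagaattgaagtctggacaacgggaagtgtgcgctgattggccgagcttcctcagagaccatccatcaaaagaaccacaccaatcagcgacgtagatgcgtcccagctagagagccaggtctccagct
Mdm2: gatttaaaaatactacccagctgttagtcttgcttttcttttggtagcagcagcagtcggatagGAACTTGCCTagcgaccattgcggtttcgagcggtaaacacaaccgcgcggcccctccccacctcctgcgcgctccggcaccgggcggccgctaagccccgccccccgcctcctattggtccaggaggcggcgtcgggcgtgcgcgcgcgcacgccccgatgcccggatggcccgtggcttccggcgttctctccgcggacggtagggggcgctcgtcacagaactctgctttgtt
Gadd45a: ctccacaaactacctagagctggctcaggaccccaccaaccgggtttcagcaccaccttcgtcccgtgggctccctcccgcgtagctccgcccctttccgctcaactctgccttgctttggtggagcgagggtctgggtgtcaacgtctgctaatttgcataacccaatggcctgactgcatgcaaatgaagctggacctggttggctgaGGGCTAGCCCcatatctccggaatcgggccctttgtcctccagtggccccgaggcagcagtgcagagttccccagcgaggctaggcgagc

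Ccng1 was the sole gene of the 6 with an adjoining pair, which began 195 bases before the start and had 1 mismatch. Such a pair was present in 0.798% of 32851 promoter entries of 300 bases, and a single decamer in 8.36%. Of the 7 entries, 4 held at least 1 decamer, namely those of Ccng1, Mdm2, Gadd45a and Trp53. The Mdm2 decamer began 186 bases and the Gadd45a decamer 40 bases before the start. Such matches describe the letters only. In Mdm2 and Gadd45a p53 is known to act through intron sequences, which lie outside this window.

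The arrays did not group fully by their labels. Withdrawal replicate 1 and estradiol replicate 1 differed by at least 2-fold in 16 of 7453 tested probe sets, whereas the withdrawal arrays differed from each other in 920 and the doxycycline arrays in 283. The 13 tested proliferation markers had a median, relative to their means over all arrays, of 0.71 and 0.94 on the log2 scale on the estradiol arrays, 0.62 and -0.55 on the withdrawal arrays and -0.41 and -1.29 on the doxycycline arrays (replicates 1 and 2). Of 12 fibroblast markers, 10 had a mean signal of at least 100, although the Vim probe set read at most 40.7. Among markers of other cells, Epcam (epithelial) read at most 8.1, Ptprc (immune) at most 10.5 and Cdh5 (endothelial) at most 5.5. A mean signal of at least 100 was reached by 1 of 8 epithelial markers (Cdh1), 1 of 7 immune markers (Cd14) and 0 of 5 endothelial markers. The ratio of the 3′ to the 5′ Gapdh control probe set, a sign of RNA integrity, was 0.752 and 0.877 with estradiol, 0.738 and 0.921 after withdrawal and 0.831 and 0.799 with doxycycline. The part of these differences in the results below was not tested.

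Of the 8 probe sets, 6 passed the filter on low signals, 1 each for Mdm2, Mdm4, Ccng1, Gadd45a, Btg2 and Zmat3. Limma called 0 of these 6, and 0 of all 7453 probe sets (0%), in each of the 3 comparisons at an adjusted p under 0.05. At an unadjusted p under 0.05 stood 1 of 6 for withdrawal against doxycycline (background 4.37%), 0 of 6 for estradiol against withdrawal (0.698%) and 1 of 6 for estradiol against doxycycline (14%), and the gene was Ccng1 both times. The values below are MAS5 signals, the brightness of a probe set on a linear scale, and log2 fold changes of (signal + 32). Since no member passed, the values describe these arrays.

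**Figure D1:**
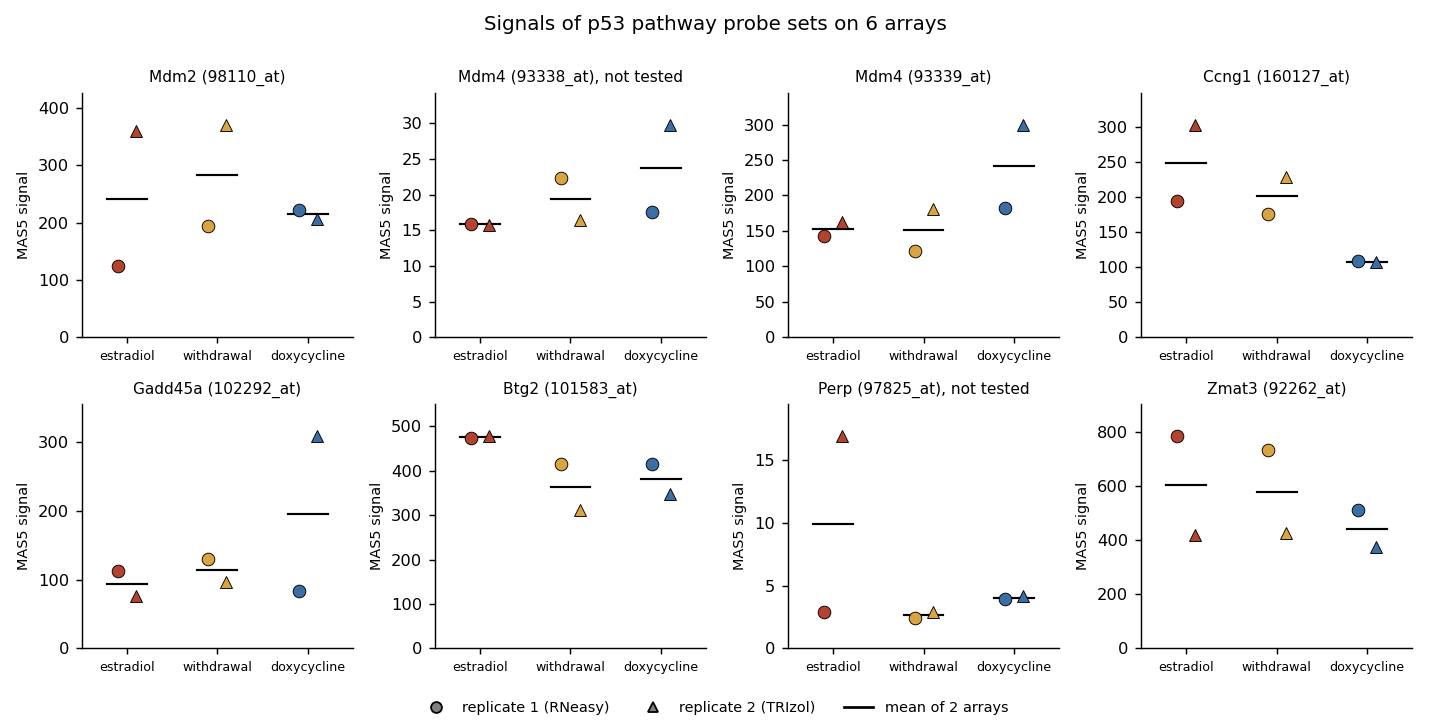
MAS5 signals (vertical axes, linear, from 0) of the 8 probe sets in the estradiol, withdrawal and doxycycline groups. Circles are replicate 1, triangles replicate 2 and bars the mean of 2 arrays. Ccng1 lay at 106.6 and 109.2 with doxycycline and at 175.2 or more on the other arrays, while Gadd45a stood out at 309.3 on doxycycline replicate 2.

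Among the inhibitors of p53, Mdm2 split the arrays by replicate number within the groups without doxycycline. It had signals of 124.7 and 359.2 with estradiol, 193.9 and 370.5 after withdrawal and 222.7 and 206.1 with doxycycline (replicates 1 and 2). The highest values were those of the estradiol and withdrawal arrays of replicate 2, and the lowest that of estradiol replicate 1, so each group overlapped the others. Replicate 2 exceeded replicate 1 by 1.32 on the log2 scale with estradiol and by 0.83 after withdrawal, against -0.10 with doxycycline.

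The fold change of Mdm2 was 0.29 for withdrawal against doxycycline (SE 0.46, 95% interval -0.76 to 1.34, adjusted p = 0.955), and was -0.17 within replicate 1 and 0.76 within replicate 2. It became -0.125 without withdrawal replicate 2. For estradiol against withdrawal it was -0.28 (SE 0.46, adjusted p = 1.00), and -0.53 within replicate 1 against -0.04 within replicate 2. That value turned to 0.38 without estradiol replicate 1 and to 0.13 without withdrawal replicate 2. Estradiol against doxycycline gave 0.01 (SE 0.46, interval -1.04 to 1.06), which left room for a change of 2-fold in either direction. Within RNeasy extracts it was -0.70 and within TRIzol extracts 0.72.

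Mdm4 was lower without doxycycline on average, by a margin that was narrow at its closest point. On its brighter probe set, estradiol arrays read 142.7 and 163.0, withdrawal arrays 121.9 and 180.5 and doxycycline arrays 182.4 and 299.7. Both doxycycline arrays lay above the other 4, but withdrawal replicate 2 came within 2 signal units of doxycycline replicate 1. The fold change was -0.56 for withdrawal against doxycycline (SE 0.31, 95% interval -1.28 to 0.16, adjusted p = 0.925), and was -0.48 within replicate 1 and -0.64 within replicate 2. For estradiol against doxycycline it was -0.53 (SE 0.31, adjusted p = 0.467), with -0.29 and -0.77. Without doxycycline replicate 2 these values were -0.25 and -0.22. Estradiol against withdrawal gave 0.03 (SE 0.31, interval -0.69 to 0.75). The other Mdm4 probe set read 15.8 to 29.8 on all arrays, below the filter, and its highest value was also on doxycycline replicate 2.

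Ccng1 encodes cyclin G1, an early-described p53 target that recruits a phosphatase to Mdm2. It was higher in both groups with the oncogenes on, and it was the member whose fold change over doxycycline was furthest from 0. Its signals were 194.4 and 302.9 with estradiol, 175.2 and 227.9 after withdrawal and 109.2 and 106.6 with doxycycline. All 4 arrays without doxycycline lay above both doxycycline arrays, which differed by less than 3 signal units.

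Withdrawal against doxycycline gave Ccng1 a fold change of 0.73 (SE 0.29, 95% interval 0.06 to 1.40, adjusted p = 0.925), and was 0.55 within replicate 1 and 0.91 within replicate 2. Leaving out 1 array at a time gave 0.57 to 0.89. Estradiol against doxycycline gave 0.98 (SE 0.29, interval 0.31 to 1.64, adjusted p = 0.257), with 0.68 and 1.27, and 0.70 to 1.26 with 1 array left out. The lowest adjusted p of Ccng1 under any setting was 0.0967, without withdrawal replicate 2. Estradiol and withdrawal overlapped (0.25, SE 0.29, interval -0.42 to 0.91, adjusted p = 1.00), and that value was -0.04 without estradiol replicate 2. Proliferation markers were also higher than with doxycycline on average, with medians of 0.92 for withdrawal (1.05 within replicate 1 and 0.71 within replicate 2) and 1.63 for estradiol (1.2 and 2.17). Their part in the Ccng1 values was not tested.

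Gadd45a, a stress protein that inhibits the mitotic kinase Cdk1 and takes part in DNA repair, was set apart by 1 array. It had 112.9 and 75.7 with estradiol, 130.4 and 97.3 after withdrawal and 83.4 and 309.3 with doxycycline. The array titled with both doxycycline and estradiol held the highest value, and doxycycline replicate 1 lay below every array but estradiol replicate 2. The fold change was -0.45 for withdrawal against doxycycline (SE 0.47, 95% interval -1.54 to 0.63), made up of 0.49 in replicate 1 and -1.40 in replicate 2. For estradiol against doxycycline it was -0.67 (SE 0.47, interval -1.75 to 0.42), made up of 0.33 and -1.66. Without doxycycline replicate 2 both turned positive, at 0.33 and 0.11. Estradiol against withdrawal gave -0.21 (SE 0.47, adjusted p = 1.00), or -0.43 without estradiol replicate 1 and 0.00 without estradiol replicate 2.

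Btg2, an antiproliferative protein that slows entry into S phase, varied least among the tested members. Its signals were 474.5 and 478.3 with estradiol, 416.4 and 312.5 after withdrawal and 414.5 and 348.4 with doxycycline. Both estradiol arrays were above the other 4, and the highest signal was 1.53 times the lowest. Estradiol against withdrawal gave a fold change of 0.37 (SE 0.28, 95% interval -0.27 to 1.01, adjusted p = 1.00), which was 0.18 within replicate 1 and 0.57 within replicate 2, and estradiol against doxycycline 0.30 (SE 0.28, adjusted p = 0.657). The first value was 0.18 without withdrawal replicate 2 and 0.56 without withdrawal replicate 1, and the second 0.19 without doxycycline replicate 2. Withdrawal against doxycycline gave -0.07 (SE 0.28, interval -0.70 to 0.57), with overlapping groups, and the value turned positive without doxycycline replicate 1 (0.05) or withdrawal replicate 2 (0.12).

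Zmat3, also called Wig1, is a zinc finger protein that binds RNA, and its signal followed the replicate number more than the group. Its signals were 783.6 and 419.6 with estradiol, 731.6 and 424.4 after withdrawal and 510.7 and 373.5 with doxycycline. Replicate 2 was below replicate 1 in every group, with differences on the log2 scale of -0.85 for estradiol, -0.74 for withdrawal and -0.42 for doxycycline. The order by replicate number was thus the opposite of that of Mdm2 in the estradiol and withdrawal groups. Withdrawal against doxycycline gave 0.33 (SE 0.39, 95% interval -0.57 to 1.23), with 0.49 in replicate 1 and 0.17 in replicate 2, and -0.04 without withdrawal replicate 1. Estradiol against doxycycline gave 0.37 (SE 0.39), with 0.59 and 0.15, and -0.055 without estradiol replicate 1. Estradiol against withdrawal gave 0.04 (SE 0.39, interval -0.86 to 0.94).

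Perp, a membrane protein of desmosomes with a part in p53-dependent death, was barely read. Its signals were 2.9 and 16.9 with estradiol, 2.4 and 2.9 after withdrawal and 3.9 and 4.2 with doxycycline. All of them lay below the filter limit of about 29.0, and no detection calls accompanied the values used here, so no fold change is given.

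**Figure D2:**
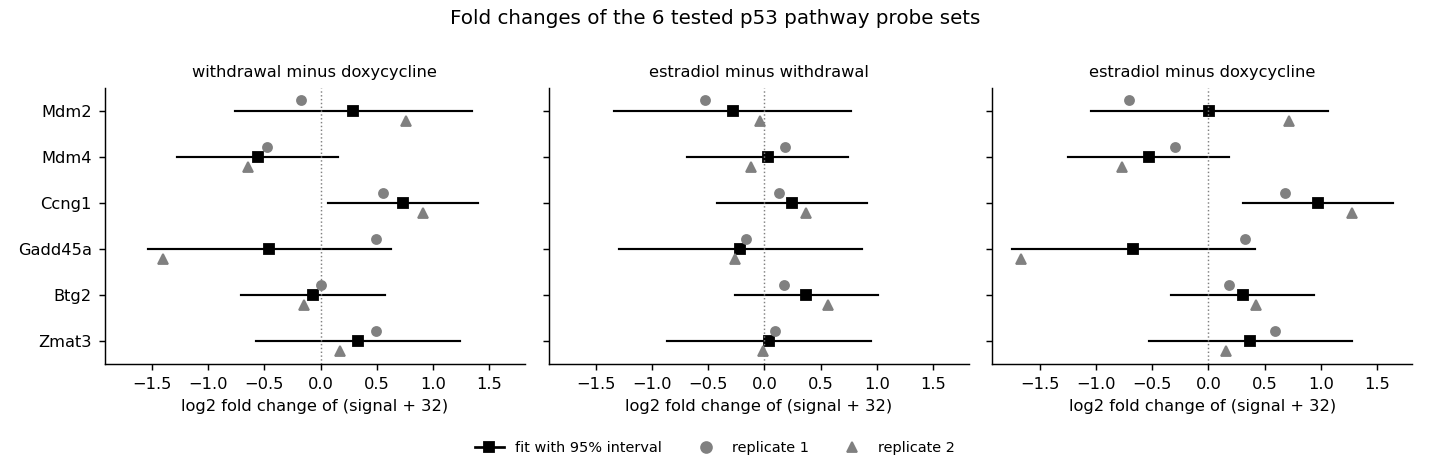
Log2 fold changes of (signal + 32) for the 6 tested probe sets in the 3 comparisons. Squares with lines are limma's estimates with 95% intervals, and grey circles and triangles are the differences within replicates 1 and 2. The Ccng1 intervals against doxycycline start at 0.06 for withdrawal and 0.31 for estradiol, and the Gadd45a replicates lie on opposite sides of 0 in both of those comparisons.

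By comparison, the means of the members did not differ in one direction. For withdrawal against doxycycline, 3 of 6 had higher and 3 lower mean values, with a median of 0.11 against 0.01 over all tested probe sets. The groups did not overlap for Ccng1, higher (1 of 6, background 16.9%), and for Mdm4, lower (1 of 6, background 15%). For estradiol against withdrawal 4 had higher and 2 lower means, with a median of 0.03 against 0.01 over all. Btg2 was the sole member whose groups did not overlap there, higher (1 of 6, background 11.6%), with 0 lower (background 10.3%). For estradiol against doxycycline 4 were higher and 2 lower, with a median of 0.15 against 0.00. Ccng1 and Btg2 did not overlap upwards (2 of 6, background 27%) and Mdm4 downwards (1 of 6, background 24.7%). The last comparison shares its arrays with the first and second, so its values are not independent of them. With 6 probe sets, counts of 1 or 2 lie close to these background shares, and nothing is read from them.

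**Figure D3:**
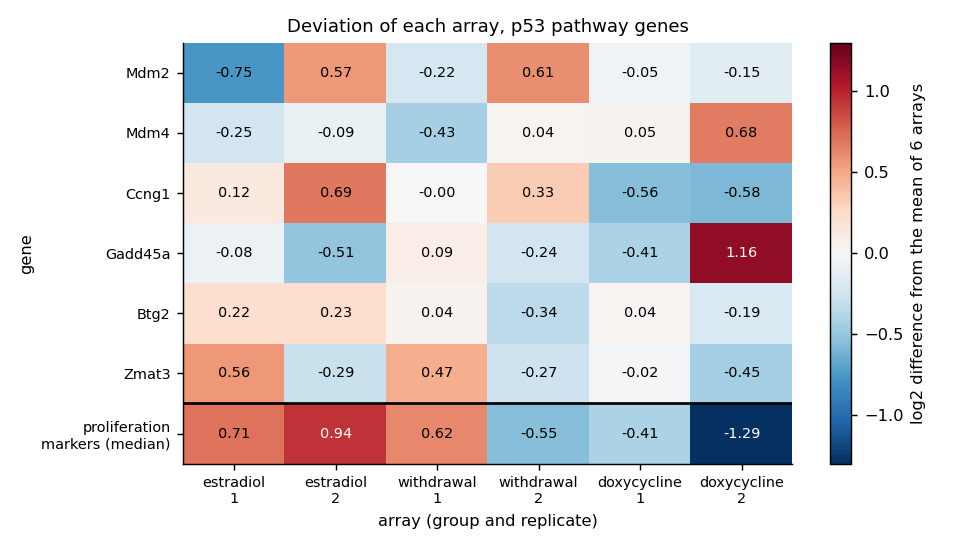
Difference of each array (columns, by group and replicate) from the mean of 6 arrays on the log2 scale, for the 6 tested genes and, in the bottom row, the median of 13 proliferation markers. Red is above and blue below the mean. Mdm2 is 0.61 above on withdrawal replicate 2, where the proliferation markers are 0.55 below, and Gadd45a is 1.16 above on doxycycline replicate 2.

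Over the 6 arrays the correlations between members ranged from -0.78 for Mdm4 with Zmat3 to 0.68 for Mdm4 with Gadd45a, and Mdm2 with Ccng1 had 0.47. These describe 6 arrays that share groups and extraction batches. The genes whose log2 values ran closest to those of Mdm2 were Bod1l (Pearson r = 0.993), Naa35 (0.989) and Smarcd1 (0.974). Such values are common with 6 arrays, and 95 tested probe sets with 1 gene name exceeded 0.9. Bod1l, Naa35 and Smarcd1 were picked for this likeness. Being highest, like Mdm2, on the withdrawal and estradiol arrays of replicate 2 therefore adds nothing to it. Bod1l, for one, read 84.7 and 120.5 with estradiol, 98.9 and 124.5 after withdrawal and 107.2 and 100.9 with doxycycline.

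Genes that act on p53 were read for 16 of 30 listed regulators, each through its brightest probe set. Of these, 12 had higher and 4 lower means for withdrawal against doxycycline, 10 and 6 for estradiol against withdrawal, and 10 and 6 for estradiol against doxycycline, and 0 passed in either direction. Over all tested probe sets the share with a higher mean was 51.8%, 51% and 50.4%. The list medians were 0.11, 0.13 and 0.20, against 0.01, 0.01 and 0.00 over all probe sets.

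Mapk8, the stress kinase JNK1 that phosphorylates p53, had 134.0 and 121.5 with estradiol, 150.8 and 117.3 after withdrawal and 227.9 and 280.0 with doxycycline. Both doxycycline arrays were the highest (withdrawal -0.79, SE 0.26, adjusted p = 0.925, and estradiol -0.83, SE 0.26, adjusted p = 0.273). The checkpoint kinase Chek2 had 168.9 and 142.1 with estradiol, 148.3 and 94.6 after withdrawal and 71.4 and 82.0 with doxycycline (estradiol against doxycycline 0.78, SE 0.27, adjusted p = 0.294). Atm, the kinase that senses DNA breaks, read 270.8 on estradiol replicate 2 and 54.0 to 119.6 elsewhere, with 1.01 (SE 0.41, adjusted p = 0.341) for estradiol against doxycycline and 0.57 (SE 0.41) for estradiol against withdrawal.

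Yy1 is a zinc finger protein that promotes the binding of Mdm2 to p53. Its brighter probe set differed by 0.57 for withdrawal against doxycycline (SE 0.28) and 0.69 for estradiol against doxycycline (SE 0.28, adjusted p = 0.339). The other Yy1 probe set gave 0.45 and 0.54. Both groups overlapped doxycycline there, and doxycycline replicate 2 read 17.2, below the filter limit of about 29.0. Pml, a scaffold of nuclear bodies, differed by -0.37 for withdrawal against doxycycline (SE 0.32). For estradiol against withdrawal, the checkpoint kinases Chek1 and Chek2 gave 0.37 (SE 0.32) and 0.31 (SE 0.27), and the Mdm2-stabilising protease Usp7 gave 0.26 (SE 0.26). Every one of these had an adjusted p of 1.00 there. The other Usp7 probe set gave -0.04 for estradiol against withdrawal, with the opposite sign. Chek1 read 76.5 and 63.5 with estradiol and 72.2 and 27.9 after withdrawal, the last below the filter limit of about 29.0. The Cdkn2a probe set, which belongs to the locus of Arf, read 24.7 and 30.4 with estradiol, 11.6 and 24.0 after withdrawal and 44.8 and 22.7 with doxycycline, and was below the filter.

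**Figure D4:**
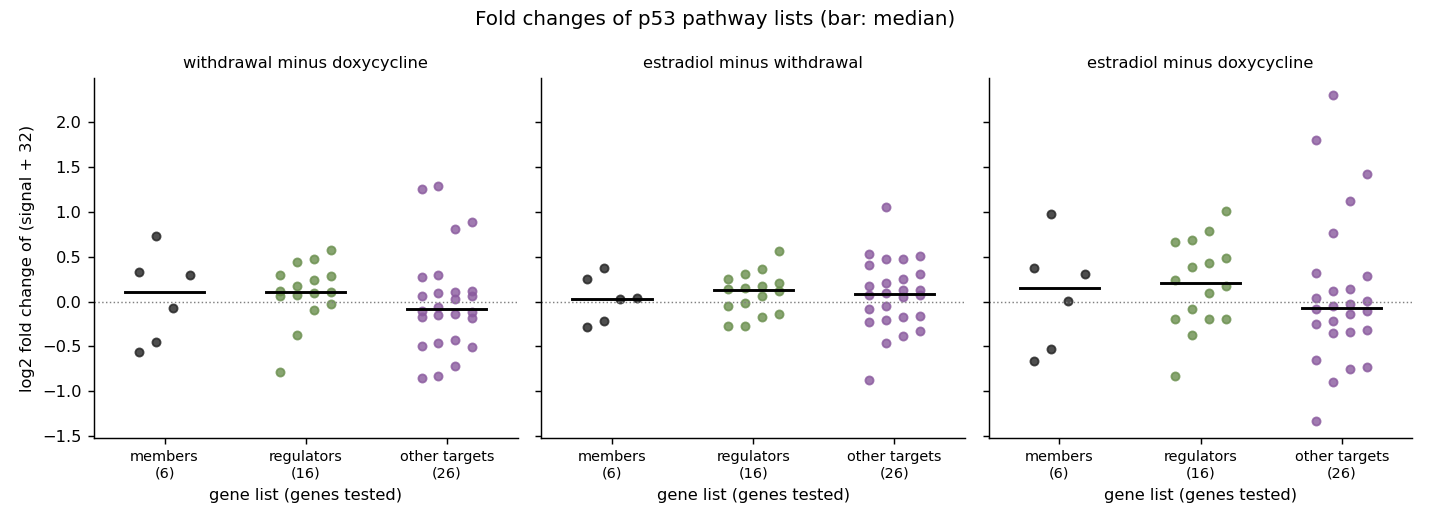
Log2 fold changes of (signal + 32) of single genes in the 3 comparisons, for the 6 members, 16 regulators of p53 and 26 other reported p53 targets. Each point is a gene and each bar the median of its list. List medians lie between -0.08 and 0.20, while the target Gtse1 reaches 1.26 for withdrawal and 2.31 for estradiol against doxycycline. The points of Ptprv against doxycycline rest on doxycycline signals below the filter limit. Those of Irf5 against withdrawal or doxycycline include withdrawal signals close to or below it where withdrawal is compared.

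Other reported targets of p53 were read for 26 of 49 listed genes, and 0 passed in either direction. Higher and lower means numbered 12 and 14 for withdrawal against doxycycline, 16 and 10 for estradiol against withdrawal, and 11 and 15 for estradiol against doxycycline. Over all tested probe sets 51.8%, 51% and 50.4% had a higher mean. The list medians were -0.08, 0.09 and -0.07, against 0.01, 0.01 and 0.00 over all. Among them Ptprv, a receptor-like phosphatase known as a p53 target in mouse, had signals of 107.3 and 135.2 with estradiol, 95.1 and 58.3 after withdrawal and 11.4 and 12.3 with doxycycline in its brightest probe set. Both doxycycline signals lay below the filter limit, and the probe set passed the filter through the other 4 arrays, so no fold change against doxycycline is given. Its other tested probe set overlapped between withdrawal and doxycycline, with 68.5 and 78.7 with estradiol, 54.9 and 35.3 after withdrawal and 6.7 and 40.6 with doxycycline. Estradiol against withdrawal gave 0.51 (SE 0.27, adjusted p = 1.00) in the brightest probe set.

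Gtse1, a cell cycle protein that moves p53 out of the nucleus, had 423.0 and 580.7 with estradiol, 433.6 and 107.4 after withdrawal and 85.8 and 64.5 with doxycycline. Its highest and lowest arrays were also those of the proliferation markers. The fold change was 2.31 for estradiol against doxycycline (SE 0.51, adjusted p = 0.255), 1.26 for withdrawal against doxycycline (SE 0.51) and 1.05 for estradiol against withdrawal (SE 0.51). Epha2, an ephrin receptor, had 130.9 and 193.2 with estradiol, 133.2 and 112.1 after withdrawal and 49.4 and 63.0 with doxycycline, with 1.12 for estradiol (SE 0.27, adjusted p = 0.255) and 0.81 for withdrawal (SE 0.27). The death-promoting protein Siva1 gave 0.47 for estradiol against withdrawal (SE 0.29).

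Irf5, a relative of IRF-1, had 36.3 and 69.7 with estradiol, 31.0 and 24.7 after withdrawal and 60.4 and 90.7 with doxycycline. Its withdrawal signals lay close to or below the filter limit of about 29.0, so no fold change is given. Gadd45b, a relative of Gadd45a, had 83.2 and 66.5 with estradiol, 89.7 and 280.4 after withdrawal and 269.0 and 208.1 with doxycycline in the brighter of its 2 probe sets. It was thus low on the estradiol arrays and on withdrawal replicate 1 and high on the other 3 (estradiol against doxycycline -1.33, SE 0.42, adjusted p = 0.276, and estradiol against withdrawal -0.87, SE 0.42). Its other probe set gave -1.42 and -0.69. The name of the first probe set ends in the suffix that the manufacturer gives to probes shared within a gene family, so it may read related transcripts too.

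Cdkn1a, which encodes p21 and halts the cell cycle, read 1603.0 and 718.0 with estradiol, 1519.3 and 419.1 after withdrawal and 1233.1 and 1465.8 with doxycycline on the brighter of its 2 probe sets. It was lowest on withdrawal replicate 2, the array on which Mdm2 was highest. The fold changes were -0.72 for withdrawal against doxycycline and 0.40 for estradiol against withdrawal, against -0.07 and 0.19 in its other probe set. For estradiol against doxycycline the 2 probe sets had opposite signs, at -0.31 and 0.12.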

How the data were processed

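RNA of 6 samples was read on 1-colour Affymetrix oligonucleotide arrays, 1 per sample. The authors' deposited values are MAS5 signals, an intensity on a linear scale, per the submitters' processing notes, with settings not given in the sources used here. Trimmed means (2% left out at each end) were 150.09 to 150.1, so the arrays had been scaled alike. Each array was rescaled to the common trimmed mean and turned into log2(signal + 32), which understates changes of dim probe sets. The 66 control probe sets and the lowest 40% by mean log2 signal were left out. Limma 3.58.1 in R 4.3.3 fitted 1 mean per group over all 6 arrays with an intensity trend, leaving 3 residual degrees of freedom. Two-sided p-values were adjusted over 7453 probe sets (Benjamini-Hochberg). The code was tested on simulated data.

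Gene names came from the platform annotation; 10833 probe sets had 1 symbol, 396 several and 1193 none. Members and lists were chosen with earlier results of these data known. Named genes were all members, up to 4 genes per list and comparison with the smallest p, the 3 genes most like Mdm2, and Cdkn1a. Trp53-ps, Cdkn2a and the marker genes named for single cell types were added after their values were seen. The replicate number goes with the extraction kit in the labels, which pairs the arrays. Deviations from the group means nevertheless correlated at -0.00727 (doxycycline and withdrawal), -0.0284 (doxycycline and estradiol) and 0.449 (withdrawal and estradiol). The p-values cover only the array-to-array spread, possibly technical, and 2 arrays per group limit the precision. Alternatives were another pseudocount, no filter, quantile normalization, no trend, the replicate as a block, and each array left out.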

Additional observations from a re-analysis of the deposited data

How the results depend on the processing

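The count of member probe sets called by limma was 0 in every comparison under all alternatives run. With a pseudocount of 16, no filter, quantile normalization, no trend or the replicate block, the member medians moved by less than the spread between arrays, and no member changed direction except Mdm2 for estradiol against doxycycline, which was -0.003 with a pseudocount of 16 and -0.023 with quantile normalization. With the replicate block the adjusted p of Ccng1 was 0.8 for withdrawal and 0.205 for estradiol against doxycycline, and the block changed no call.

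Leaving out 1 array at a time moved more. The member median then ranged from -0.15 to 0.19 for withdrawal against doxycycline, from -0.018 to 0.24 for estradiol against withdrawal and from -0.078 to 0.24 for estradiol against doxycycline. For withdrawal against doxycycline the ranges were -0.125 to 0.71 for Mdm2, -1.24 to 0.33 for Gadd45a, -0.26 to 0.12 for Btg2 and -0.04 to 0.70 for Zmat3. For estradiol against withdrawal they were -0.94 to 0.38 for Mdm2, -0.43 to 0.00 for Gadd45a, 0.18 to 0.56 for Btg2, -0.20 to 0.26 for Mdm4, -0.036 to 0.53 for Ccng1 and -0.39 to 0.47 for Zmat3. For estradiol against doxycycline they were -0.65 to 0.67 for Mdm2, -1.45 to 0.11 for Gadd45a, 0.19 to 0.42 for Btg2 and -0.055 to 0.80 for Zmat3. Ccng1 and Mdm4 kept their direction against doxycycline under every setting run. The causes were not tested. Where 1 array of a group was left out, the other is assumed to vary like the remaining groups. Over all probe sets, calls numbered 26 for withdrawal against doxycycline without doxycycline replicate 1, 17 for estradiol against withdrawal without withdrawal replicate 1, and 28, 131 and 133 for estradiol against doxycycline without doxycycline replicate 1, withdrawal replicate 1 and withdrawal replicate 2, against 0 with all arrays. Low signals limit what can be said of Perp and of the dimmer Mdm4 probe set.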

Other observations

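Doxycycline replicate 2, the array whose title also names estradiol, held the highest signal of Gadd45a and of both Mdm4 probe sets. The dimmer Mdm4 probe set was below the filter, and Mdm2, Ccng1, Btg2, Zmat3 and Perp were highest on other arrays. The share of all probe sets that were highest on this array is not given here. Among the other reported p53 targets, Tap1, the peptide transporter of antigen presentation, had 150.7 and 128.2 with estradiol, 135.9 and 119.7 after withdrawal and 132.7 and 469.2 with doxycycline, so the same array stood apart. Pml had its highest signal there too, with 250.2 and 234.7 with estradiol, 248.6 and 178.3 after withdrawal and 212.2 and 371.3 with doxycycline. These genes were picked out after their values were seen, and no test was made.

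The probe sets assigned to the pseudogene Trp53-ps read 74.8 and 70.8 with estradiol, 73.7 and 109.9 after withdrawal and 62.8 and 80.5 with doxycycline in one case. In the other they read 127.3 and 133.4 with estradiol, 112.9 and 97.2 after withdrawal and 142.4 and 158.8 with doxycycline. The 2 probe sets ordered the arrays differently, and the files do not say whether either also reads Trp53.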
